A study of Mus musculus with 30 samples.

Results

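Actins, the calponins and transgelin-2 were followed through 2 inhibitors of actomyosin contraction in mouse tendon fibroblasts. The 8 genes were picked by name, with earlier results of these data known. They are 4 actins (Actb, Actg1, Acta2 and Actg2), 3 calponins (Cnn1, Cnn2 and Cnn3) and Tagln2. All 8 were found in both RNA tables, out of 35973 genes in that of blebbistatin and 35972 in that of Y27632. The cells were primary wildtype fibroblasts from mouse tail tendon, grown with 10% serum and treated in medium with 0.1% serum. RNA was measured in 9 libraries, 3 each for the solvent DMSO, for blebbistatin at 10 µM, which inhibits non-muscle myosin II, and for Y27632 at 30 µM, a kinase inhibitor that lowers contraction. Chromatin accessibility was measured by ATAC in another 9 libraries with the same 3 treatments, 3 each, and 12 genomic DNA libraries, 3 per group, had neither drug, blebbistatin at 10 µM, doxycycline at 10 ng/mL, or doxycycline and blebbistatin together. The labels do not say what doxycycline induced in these cells, name no assay for these 12 libraries in particular, and give neither the treatment time nor whether replicates came from separate cultures or animals, so p-values measure only the spread between these samples. By its own description, the series examined how mechanical input and the transcriptional co-activators Yap and Taz keep chromatin and gene expression in balance.

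Actin forms the filaments on which myosin pulls. Actb and Actg1 encode the cytoplasmic beta and gamma actins that most cells use, while Acta2 and Actg2 encode the alpha and gamma actins of smooth muscle, and Acta2 is the usual marker of contractile myofibroblasts. Calponins bind along filaments and dampen the ATPase of actomyosin, Cnn1 chiefly in smooth muscle and Cnn2 and Cnn3 in many cell types, and transgelin-2 is a related filament-binding protein. Several genes of this kind are known targets of serum response factor, SRF, which binds a DNA element called the CArG box with a coactivator that free actin monomers hold back, and Yap and Taz act on chromatin through TEAD factors, whose element holds the letters GGAATG.

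Of the promoters that could be searched, those of the 2 genes with a CArG box close to their start are shown. That of the calponin Cnn3 is printed as an example without a full box, and Acta2, Cnn1 and Tagln2 had none either. The RefSeq table of build GRCm38.p6 held promoters for 6 of the 8 genes, all but Actb and Actg2. The 250 bases before the start are printed, in capitals where they match the CArG box (CC, then 6 bases that are each A or T, then GG, read on both strands). Actg1 is at chr11:120348496-120348745 on the minus strand, Cnn2 at chr10:79988350-79988599 and Cnn3 at chr3:121426291-121426540, both on the plus strand.
Actg1: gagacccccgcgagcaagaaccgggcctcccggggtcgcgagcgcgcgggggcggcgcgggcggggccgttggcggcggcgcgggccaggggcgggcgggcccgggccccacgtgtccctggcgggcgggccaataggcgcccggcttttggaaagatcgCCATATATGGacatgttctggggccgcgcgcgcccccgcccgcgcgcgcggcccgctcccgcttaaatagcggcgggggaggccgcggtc
Cnn2: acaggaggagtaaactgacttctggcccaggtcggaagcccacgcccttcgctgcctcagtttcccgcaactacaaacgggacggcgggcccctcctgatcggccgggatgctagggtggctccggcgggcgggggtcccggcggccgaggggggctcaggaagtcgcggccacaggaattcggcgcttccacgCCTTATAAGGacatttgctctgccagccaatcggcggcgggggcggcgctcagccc
Cnn3: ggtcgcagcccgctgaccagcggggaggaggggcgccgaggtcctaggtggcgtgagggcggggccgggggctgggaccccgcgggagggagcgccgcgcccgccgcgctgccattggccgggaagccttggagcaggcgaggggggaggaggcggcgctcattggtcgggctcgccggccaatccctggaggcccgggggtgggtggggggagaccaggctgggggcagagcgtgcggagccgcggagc
The match in Actg1 was CCATATATGG, 90 to 81 bases before the start, and that in Cnn2 was CCTTATAAGG, 56 to 47 bases before the start. Of all 27025 promoter windows of this length, 378 (1.40%) held such a match, as did 127 of 11160 (1.14%) of genes tested for RNA. Acta2 had no full match and 2 with 1 base of the core that is G or C, CCCTATATGG at 84 to 75 and CCTTGTTTGG at 34 to 25 bases before its start, a looser form that was present in 7.38% of all promoters. It also held GGAATG once, 146 to 141 bases before the start. On the other strand, Tagln2 held this element 2 times, 118 to 113 and 80 to 75 bases before its start. Among all promoters, 12.6% of all promoters held GGAATG on either strand. Cnn1 and Cnn3 matched none of the 3 patterns in these windows. The windows of Acta2 and Cnn1 overlap the gene spans given below, since the start used lies inside those spans. A match is a description of letters only, and whether these elements bear on the RNA was not tested. The RNA of 4 genes with a promoter here fell with both drugs. Of these, Actg1 and Cnn2 had a full CArG box, Acta2 had only the looser form, and Cnn1 had no match in this window.

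Values below are normalised counts, which are reads divided by 1 size factor per library, and fold changes are differences of log2(normalised count + 1), with standard error (SE) and 95% interval where given. Library depth was 23375386 to 37061737 reads in genes, and every pair of replicates differed by more than sampling noise. Of the 8 tendon fibroblast markers listed (such as Scx, Tnmd and Col1a1), all 8 were present in every group, with summed normalised counts of 561300 to 663700. Most of this sum was Col1a1 and Col1a2, so it says little about the other markers. Under blebbistatin 3 of the 8 rose (Dcn by 0.28, Fmod by 0.25 and Mkx by 0.13). Another 3 changed by -0.25 (Col1a1), -0.24 (Tnmd) and -0.12 (Col1a2). Under Y27632 there were 4 rises (Fmod by 0.66, Dcn by 0.31, Mkx by 0.25 and Thbs4 by 0.13) and 0 falls that passed the threshold. Among all genes tested, 53.0% were called with blebbistatin (26.1% higher and 26.9% lower) and 35.9% with Y27632 (18.1% higher and 17.8% lower). Of 6 leukocyte markers, 5 were tested and all 5 were higher with either inhibitor. Their summed counts were 5983 to 6568 with DMSO, 8614 to 9619 with blebbistatin and 8679 to 9917 with Y27632, with Cd3e at 0 throughout. Of 8 markers of smooth muscle and pericytes other than actins and calponins, 5 were tested, and their sums over all 8 were 2421 to 2727 with DMSO, 2875 to 3217 with blebbistatin and 2636 to 3261 with Y27632. Of these 5, Notch3 and Cspg4 rose and Rgs5 fell with blebbistatin, and Cspg4 and Mcam rose with Y27632. These counts of calls are near the shares among all genes. The contractile smooth muscle markers Myh11 and Des had 14 to 28 and 5 to 12 reads. The 5 endothelial markers summed to 3335 to 3398 with DMSO, 2114 to 2375 with blebbistatin and 2989 to 3192 with Y27632, nearly all of it Tek, which fell by 0.63 and by 0.14, while Kdr (0.60 and 0.41) and Cdh5 (0.30 and 0.34) had values above 0 that were not called. The 6 skeletal muscle markers summed to 125 to 133, 117 to 149 and 207 to 252, with Ckm at 0 throughout. Of these Tnnt3 rose with Y27632, by 1.1, and Acta1, the only other one tested, was at -0.38 and not called. Keratinocyte markers summed to 187 to 261 over all libraries. The part of such cells in the results was not tested.

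Under blebbistatin, 5 of the 8 genes fell and none rose: both cytoplasmic actins, Acta2, Cnn1 and Cnn2. In this comparison 53.0% of 14882 tested genes were called at an adjusted p under 0.05 and 26.9% were called lower. All 8 genes passed the filter on low values. The same 5 were lower in every treated library than in every DMSO library, where 30.2% of genes were lower without overlap. The median log2 change of the 8 genes was -0.66, beside 0.002 over all genes tested. With Y27632 the same 5 genes fell and none rose, where 35.9% of 14833 genes were called and 17.8% were called lower, and the median was -0.60 beside 0.004. Groups did not overlap for these 5 and Cnn3, where 23.7% of genes were lower without overlap. The 2 comparisons share their DMSO libraries. The 8 genes were chosen with earlier results of these data known, so the shares over all genes are a description and not a test of the set. In these bulk samples, fewer cells of a type and less RNA per cell cannot be told apart.

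**Figure D1:**
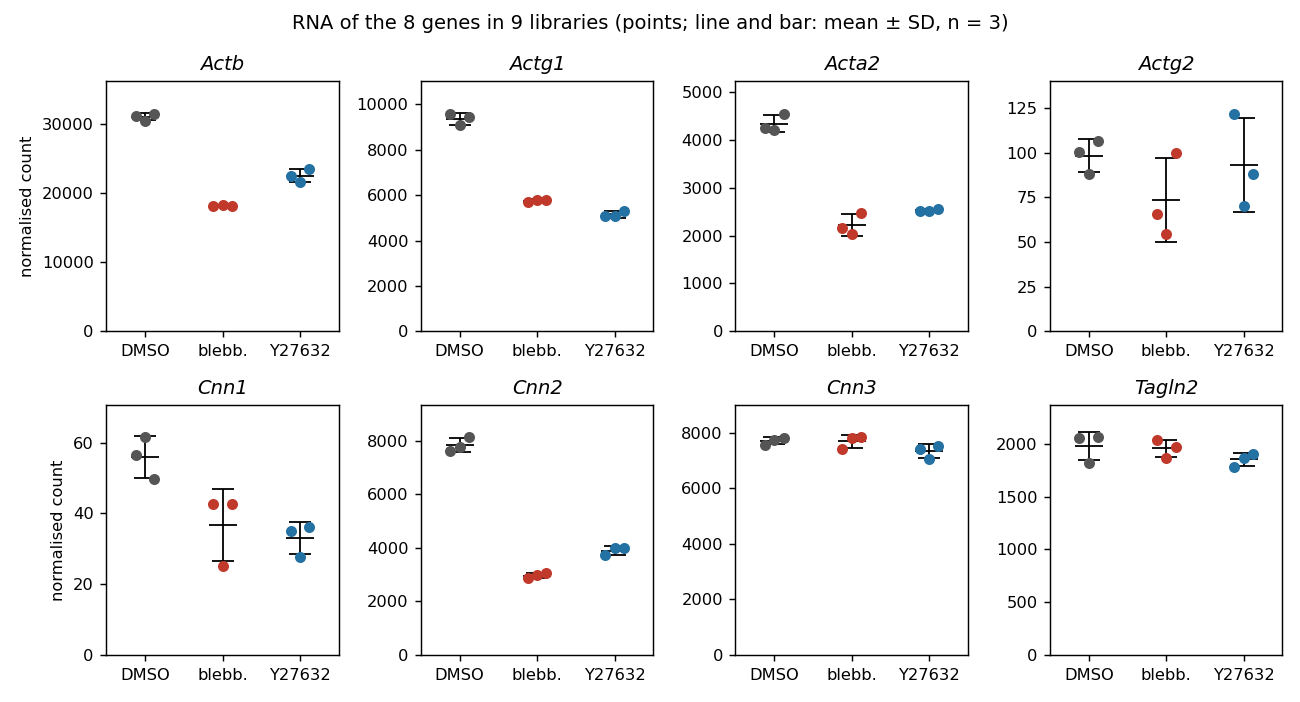
Normalised counts of the 8 genes in the 9 RNA libraries, scaled jointly so that the 3 groups can be set side by side (this changes the values slightly from those of the separate tables), each point 1 library, the line the mean and the bar the SD (n = 3). Actb, Actg1, Acta2, Cnn1 and Cnn2 are lower in both inhibitor groups than in every DMSO library, while Cnn3 and Tagln2 lie near the level of DMSO.

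Actb (NCBI gene 11461, chr5:142903115-142907976 in mm10) had the most reads of the 8 genes. Its normalised counts were 29620, 28950 and 29859 in the DMSO libraries and 17114, 17349 and 17164 with blebbistatin. The groups did not overlap and the spread within each was narrow, with means of 29476 ± 471 and 17209 ± 124 (SD, n = 3). The log2 change was -0.78 (SE 0.028, limma adjusted p = 3.84e-10), which puts the level with blebbistatin at 0.584 of that with DMSO. In the table of Y27632 the values were 30793, 30053 and 31029 for DMSO and 22197, 21320 and 23169 for the inhibitor, again without overlap. Actb changed by -0.46 on the log2 scale (SE 0.034, limma adjusted p = 3.91e-07). Actb is widely used as a reference gene for RNA levels, and in these libraries it ranked 704 of 14882 genes from the most lowered under blebbistatin.

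Actg1 (NCBI gene 11465, chr11:120345687-120348495), whose promoter with a CArG box is shown above, encodes the other cytoplasmic actin. Its normalised counts were 9113, 8635 and 8975 with DMSO and 5414, 5495 and 5492 with blebbistatin, a log2 change of -0.70 (SE 0.031, limma adjusted p = 2.23e-09). With Y27632 they were 4996, 5007 and 5254, where the DMSO libraries had 9474, 8965 and 9327, a log2 change of -0.86 (SE 0.033, limma adjusted p = 2.22e-09). Every treated library lay below every DMSO library in both tables.

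Acta2 (NCBI gene 11475, chr19:34240336-34255585), smooth muscle alpha actin, fell under both inhibitors. Its normalised counts were 4048, 4010 and 4322 with DMSO and 2043, 1935 and 2349 with blebbistatin. The means were 4126.5 ± 170 and 2109 ± 215 (SD, n = 3), so relative to its mean the spread was wider with blebbistatin (10.2%) than with DMSO (4.12%), and the groups did not overlap. This is a log2 change of -0.97 (SE 0.061, limma adjusted p = 4.86e-08). With Y27632 the values were 2488, 2495 and 2531 against 4208, 4163 and 4491 for DMSO, so the treated libraries lay close together. Their log2 change was -0.77 (SE 0.036, limma adjusted p = 6.13e-09).

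Actg2 (NCBI gene 11468, chr6:83512909-83536251), the gamma actin of smooth muscle, was a low gene here, at 60 to 160 reads per library, and was not called in either comparison. The DMSO libraries had normalised counts of 95.3, 83.8 and 101 and the blebbistatin libraries 62.3, 51.8 and 94.6. Blebbistatin replicate 3 lay within the DMSO range and the other two below it. The log2 change was -0.46 (SE 0.199, limma adjusted p = 0.0691), and -0.70 with a limma adjusted p of 0.00467 when that library was left out. Without blebbistatin replicate 2 it was -0.27 (limma adjusted p = 0.2425), and leaving out any other single library gave no call. With Y27632 the values were 120, 69.1 and 87.0 against 99.1, 87.0 and 105 for DMSO, which overlap, and the log2 change was -0.11 (limma adjusted p = 0.679). It turned to 0.08 without Y27632 replicate 2.

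Cnn2 (NCBI gene 12798, chr10:79988600-79995400) fell the most of the 8 genes under both inhibitors. Its promoter, with the CArG box, is printed above. Its normalised counts were 7243, 7406 and 7721 with DMSO and 2718, 2839 and 2885 with blebbistatin, means of 7457 ± 243 and 2814 ± 86.0 (SD, n = 3). The log2 change was -1.41 (SE 0.036, limma adjusted p = 2.91e-11), and 1.33% of genes tested were called with a change this low or lower. With Y27632 the values were 3671, 3933 and 3952 against 7530, 7689 and 8024 for DMSO. The log2 change was -1.01 (SE 0.037, limma adjusted p = 1.76e-09), with 0.917% of genes called as low or lower. No treated library came near the DMSO range in either table.

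Cnn1 (NCBI gene 12797, chr9:22099221-22109221), the smooth muscle calponin, had the fewest reads of the 3 calponins, 29 to 54 per library. With DMSO it had normalised counts of 53.6, 58.5 and 47.1, and with blebbistatin 40.5, 23.8 and 40.4. The groups did not overlap, and blebbistatin replicate 2 was the lowest. The log2 change was -0.62 (SE 0.225, limma adjusted p = 0.0345). This call was lost when a single DMSO library (replicate 1 or 2) or blebbistatin replicate 2 was left out, with limma adjusted p-values of 0.084, 0.107 and 0.138, and in the authors' deposited table its adjusted p was 0.103. With Y27632 the values were 34.6, 27.5 and 35.6 against 55.7, 60.7 and 48.9 for DMSO, a log2 change of -0.75 (SE 0.186, limma adjusted p = 0.00718), again without overlap.

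Cnn3 (NCBI gene 71994, chr3:121426541-121458205), the acidic calponin of many non-muscle cells, was not called in either comparison. Its normalised counts were 7179, 7359 and 7415 with DMSO and 7034, 7417 and 7417 with blebbistatin, and these ranges overlap. The log2 change of -0.01 had a 95% interval from -0.08 to 0.06 (limma adjusted p = 0.896). With Y27632 the values were 7326, 6953 and 7435 against 7463, 7640 and 7706 for DMSO. All 3 treated libraries lay below the DMSO libraries, by little, and the log2 change of -0.07 (95% interval -0.14 to -0.000575) had an unadjusted p of 0.0484 and an adjusted p of 0.108 by limma.

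Tagln2 (NCBI gene 21346, chr1:172500246-172507375), transgelin-2, was not called either. The DMSO libraries had normalised counts of 1951, 1734 and 1959 and the blebbistatin libraries 1931, 1776 and 1864, ranges that overlap throughout. The log2 change of -0.02 had a 95% interval from -0.13 to 0.10 (limma adjusted p = 0.807). With Y27632 the values were 1763, 1848 and 1883 against 2028, 1800 and 2035 for DMSO, a log2 change of -0.09 (95% interval -0.20 to 0.01, limma adjusted p = 0.168). Without DMSO replicate 2, the lowest of its group, it was -0.15 with a limma adjusted p of 0.0245.

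**Figure D2:**
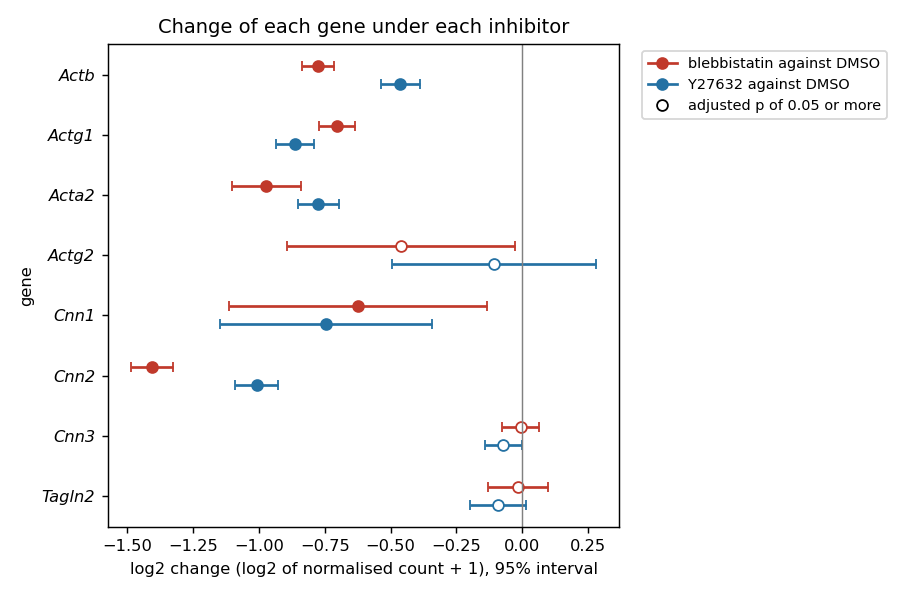
Log2 change of each gene (log2 of normalised count + 1) against DMSO with its 95% interval, blebbistatin in red and Y27632 in blue, filled where the adjusted p was under 0.05 and open otherwise. Cnn2 is furthest to the left at -1.41 and -1.01, Actg1 is further left with Y27632 and Actb with blebbistatin, and Cnn3 and Tagln2 lie next to 0.

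With libraries scaled to their total reads in genes, an alternative chosen after the data were seen, the median of all genes tested moved to 0.08 under blebbistatin, and the share of calls that were lower moved from 50.79% to 35.61%. Relative to that scale, 4 of the 8 genes were called, where 8021 of 14894 genes were. Cnn1 was not called, with a limma adjusted p of 0.0572. Cnn3 stood at 0.08 and Tagln2 at 0.07, at about the median of all genes.

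Reads of the near-identical actins can be placed on the wrong gene, and Actb, Actg1 and Cnn2 have pseudogenes listed in the RefSeq table. How reads that match several places were counted is not given in the sources used here, so the values of single actins are uncertain to that extent.

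The inhibitors were then compared with each other on the jointly fitted 9 libraries, since the 2 tables had been normalised separately. The 2 cytoplasmic actins differed in opposite directions between the drugs. Of the 8 genes, 4 were called, which is near the 53.1% called among all 14925 genes. Of all genes, 3915 (26.2%) were called lower with blebbistatin and 4011 higher. Actb, Acta2 and Cnn2 were lower with blebbistatin and Actg1 was lower with Y27632. Jointly scaled, Actb had 18035, 18274 and 18113 with blebbistatin and 22480, 21569 and 23448 with Y27632, means of 18141 ± 122 and 22499 ± 939 (SD, n = 3), a log2 difference of -0.30 (edgeR adjusted p = 1.51e-06). Actg1 had 5705, 5788 and 5795 with blebbistatin and 5060, 5065 and 5317 with Y27632, means of 5763 ± 49.96 and 5147 ± 147 (SD, n = 3), a log2 difference of 0.17 (edgeR adjusted p = 0.000291). The 2 groups did not overlap for either gene, nor for Acta2 and Cnn2. Among all genes tested 60.5% did not overlap, so neither this count nor that of calls sets the 8 genes apart. Cnn2 had 2865, 2990 and 3044.5 with blebbistatin and 3718, 3978.5 and 3999 with Y27632, a log2 difference of -0.38 (edgeR adjusted p = 1.22e-06). Acta2 differed by -0.18 (edgeR adjusted p = 0.0155), with 2153, 2039 and 2479 against 2520, 2524.5 and 2562. This last call was lost without blebbistatin replicate 2, with a difference of -0.13 and an edgeR adjusted p of 0.0566. It was also lost in a limma fit with libraries scaled to total reads, at -0.12 (limma adjusted p = 0.0968). That scaling moved the share of calls lower with blebbistatin from 49.39% to 36.73%.

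Over the levels of each gene, Actb, Acta2 and Cnn2 thus stood in the order DMSO, Y27632, blebbistatin, and Actg1 in the order DMSO, blebbistatin, Y27632, with all neighbours called different. Cnn1 was at 55.9 ± 5.97 with DMSO, 36.8 ± 10.1 with blebbistatin and 33.0 ± 4.52 with Y27632 (SD, n = 3), and the inhibitors did not differ beyond their spread (log2 difference 0.15, edgeR adjusted p = 0.596). Actg2 differed between them by -0.35 (edgeR adjusted p = 0.203), and by -0.65 with an edgeR adjusted p of 0.0268 without blebbistatin replicate 3. Without Y27632 replicate 1 its difference was -0.09 (edgeR adjusted p = 0.758), and leaving out any other single library gave no call. Cnn3 differed by 0.08 (edgeR adjusted p = 0.0613) and Tagln2 by 0.09 (edgeR adjusted p = 0.152). Under scaling to total reads, which was fitted by limma, both were called, at 0.14 and 0.15 with limma adjusted p-values of 0.00218 and 0.0222. Cnn3 was also called without blebbistatin replicate 1, at 0.10 (edgeR adjusted p = 0.0387).

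The mixture of actins within a library does not depend on scaling between libraries. The 4 actins held 0.157% ± 0.00405 of all reads in genes with DMSO, 0.0972% ± 0.00132 with blebbistatin and 0.107% ± 0.00304 with Y27632 (SD, n = 3). These shares count reads and are not per length of transcript. Of the actin reads, Actb took 69.08, 69.46 and 69.03% with DMSO and 69.48, 69.87 and 68.38% with blebbistatin, ranges that overlap. With Y27632 it took 74.48, 73.79 and 74.64%, a mean 5.12 percentage points above DMSO. Actg1 took 21.25, 20.72 and 20.75% with DMSO, 16.76, 17.33 and 16.92% with Y27632 and 21.98, 22.13 and 21.88% with blebbistatin, so its share was below every DMSO library with one drug and above with the other. Acta2 took 9.68% ± 0.280 with DMSO, 8.48% ± 0.800 with blebbistatin and 8.38% ± 0.243 with Y27632, and Actg2 under 0.41% in every library. Two-sided exact permutation tests over samples cannot go below 0.1 with 3 against 3, and 12 such tests were made on the 4 shares. They gave 0.1 (adjusted 0.15) for Actb with Y27632 against either other group, for Actg1 in all 3 comparisons, for Acta2 under both drugs and for Actg2 under Y27632, and 0.9 for Actb under blebbistatin.

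Among the calponins, Cnn2 and Cnn3 took about equal reads with DMSO and Cnn3 took the larger part with either inhibitor, a description without a test. Cnn2 took 50.3% ± 0.493 of the calponin reads with DMSO, 27.8% ± 0.138 with blebbistatin and 34.6% ± 1.38 with Y27632 (SD, n = 3). Cnn3 took 49.4% ± 0.450, 71.9% ± 0.226 and 65.1% ± 1.35. The 3 groups do not overlap for either gene. Cnn1 stayed under 0.42% in every library.

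**Figure D3:**
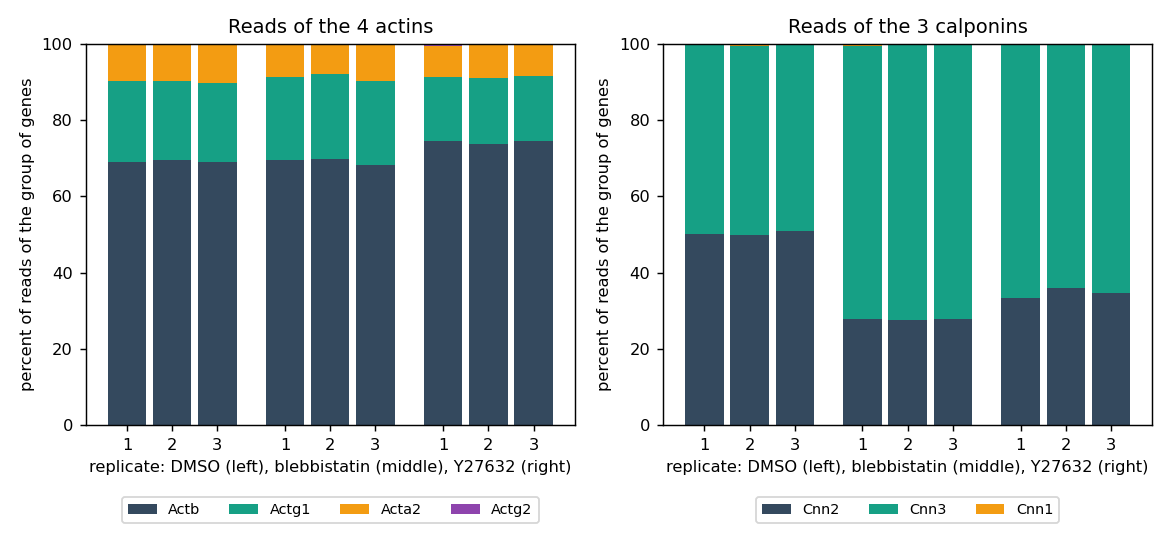
Percent of the reads of the 4 actins (left) and of the 3 calponins (right) held by each gene, 1 bar per library, DMSO, blebbistatin and Y27632 from left to right. The Actb bars are taller with Y27632 (73.79 to 74.64%) than in the other 6 libraries, and the Cnn2 bars shrink from about 50% to 27.62 to 27.89% with blebbistatin and 33.28 to 36.04% with Y27632; Actg2 and Cnn1 are too small to see.

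The RNA of other genes that act on actin was described by list, beside all genes tested, of which 26.9% were called lower and 26.1% higher with blebbistatin and 17.8% lower and 18.1% higher with Y27632. Of 16 cross-linkers and bundlers, which tie filaments into networks and bundles, 9 fell and 5 rose with blebbistatin, and 9 fell and 3 rose with Y27632, with median log2 changes of -0.41 and -0.28. Their summed normalised counts were 192200 to 202200 with DMSO, 134800 to 137100 with blebbistatin and 156900 to 162500 with Y27632. The bundler Fscn1 fell by 1.19 with blebbistatin and by 0.32 with Y27632 (limma adjusted p = 1.63e-09 and 1.93e-05), and the filamin Flnc by 0.96 and by 0.35 (limma adjusted p = 3.29e-09 and 0.000116). The alpha-actinin Actn1 fell by 0.90 and by 0.54 (limma adjusted p = 1.44e-10 and 1.67e-08), while the plastin Lcp1, which is abundant in leukocytes, rose by 0.46 and by 0.71 (limma adjusted p = 9.43e-05 and 7.84e-05). Lmod1, which nucleates filaments in smooth muscle, had the largest fitted change of the list with either drug (-1.96 and -1.52, limma adjusted p = 0.000239 and 0.00126) but rested on few reads, 25 to 41 with DMSO, 5 to 13 with blebbistatin and 11 to 16 with Y27632. It passed the filter on low values through its DMSO level, at 5.47 to 12.6 normalised counts with blebbistatin, so its size is uncertain.

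Of 20 genes of monomer binding and filament turnover, 8 rose and 9 fell with blebbistatin, where 53.0% of all genes were called in either direction, and 5 rose and 5 fell with Y27632, where 35.9% were, with medians of -0.10 and -0.03. Tmod1, which caps pointed ends, rose by 1.95 with blebbistatin (limma adjusted p = 1.44e-05) and had a value of 0.61 with Y27632 that was not called (limma adjusted p = 0.0734). It rested on few reads, 11 to 15 with DMSO and 46 to 78 with blebbistatin, so its size is uncertain. Cap2, a cyclase-associated protein that binds monomers, rose by 1.51 and by 0.49 (limma adjusted p = 3.34e-07 and 0.00591). Coro1c, a coronin, fell by 0.48 and by 0.49 (limma adjusted p = 3.34e-07 and 2.88e-07). Twf2, a twinfilin, went in opposite directions, up by 0.15 with blebbistatin (limma adjusted p = 0.0306) and down with Y27632, at -0.30 (limma adjusted p = 0.00073), and the drugs differed by 0.46 (edgeR adjusted p = 2.06e-06).

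The Arp2/3 complex, which starts branches on existing filaments, had 4 of 9 genes called with blebbistatin, all higher, and 3 of 9 with Y27632, all higher. Shares this size are near or below the 53.0% and 35.9% called among all genes, and the medians were 0.06 and 0.02. The largest changes with blebbistatin were Arpc5 (0.22, limma adjusted p = 0.000863), Actr3 (0.19, 0.00027) and Arpc1b (0.12, 0.00638), none of them called with Y27632. Arpc1a rose with both drugs, by 0.10 and 0.14 (limma adjusted p = 0.0287 and 0.00542), and Arpc4 and Actr2 rose by 0.13 and 0.12 with Y27632 and were not called with blebbistatin. Of 14 formins and related elongation factors, which build unbranched filaments, 6 rose and 4 fell with blebbistatin, where 53.0% of all genes were called, and 4 rose and 3 fell with Y27632, where 35.9% were. Fhod1 fell by 0.57 and by 0.60 (limma adjusted p = 7.63e-07 and 8.77e-07), Diaph3 by 0.52 and by 0.36 (limma adjusted p = 3.9e-05 and 0.000947), and Diaph2 by 0.31 and by 0.35 (limma adjusted p = 0.00031 and 0.000221). Fhod3 fell by 1.20 with blebbistatin (limma adjusted p = 0.000374) and was at -0.35 with Y27632, not called (limma adjusted p = 0.153). Its reads were few, 38 to 57 with DMSO and 18 to 27 with blebbistatin. Inf2 rose by 0.66 with blebbistatin (limma adjusted p = 3.81e-08) and was at -0.06 with Y27632, not called (limma adjusted p = 0.248).

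The muscle actins and transgelins outside the 8 genes were low. Acta1, skeletal alpha actin, had 9 to 39 reads per library, Actc1, the cardiac form, 0 or 1, and Tagln, the smooth muscle transgelin, 2 to 15. Only Acta1 and Tagln3 could be tested with blebbistatin, and of these Tagln3 rose by 1.004 (limma adjusted p = 0.00574) on 10 to 35 reads in those 6 libraries. Neither of the 2 tested with Y27632 was called.

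**Figure D4:**
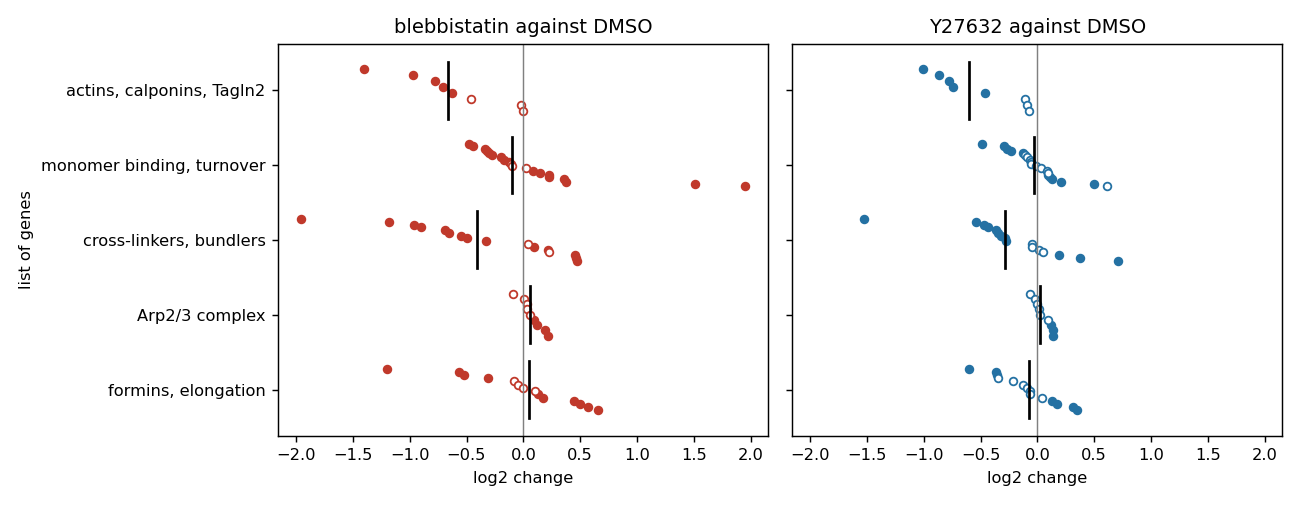
Log2 changes of the genes in each list with blebbistatin (left) and Y27632 (right), 1 point per gene, filled where the adjusted p was under 0.05, the bar the median of the list. The bars of the actins, calponins and Tagln2 stand at -0.66 and -0.60 and those of the cross-linkers at -0.41 and -0.28, while the Arp2/3 genes sit close to 0.

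Over the 9 libraries, the 8 genes did not all follow one another. Pearson's r of log2 values was 0.985 between Actb and Cnn2 and 0.984 between Acta2 and Cnn2, 0.832 between Actb and Actg1, and 0.221 between Cnn2 and Cnn3. These libraries fall into 3 treatment groups, so r mostly repeats the group means and is given as a description. Among 11446 genes with a mean of at least 100, the closest to Actb were Cyfip1 (0.997), H3f3b (0.996) and Myo1c (0.996), the last an unconventional myosin of the membrane cortex. The closest to Actg1 were the alpha-actinin Actn4 (0.994), Tspan9 (0.991) and Glipr2 (0.991). Acta2 was closest to Rhobtb3 (0.996), Sgsm1 (0.993) and Fdft1 (0.993), an enzyme of sterol synthesis, and Cnn2 to the phosphatase Dusp14 (0.997), the transporter Slc1a4 (0.996) and the GTPase Rab32 (0.995). For the other members the nearest genes were less alike, Apcdd1 for Cnn1 (0.967), Fkbpl for Cnn3 (0.937), Abhd18 for Tagln2 (0.921) and Kpna3 for Actg2 (0.916).

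Chromatin sites came as 5 lists that the authors deposited, each with log2 group means, a log2 fold and an FDR, and with no values per library. A site belongs to a gene where the authors' annotation names that gene's start as the nearest. All coordinates are in mm10. Of the 8 genes, Acta2, Actb, Cnn2 and Cnn3 had sites, 11 in all over the 5 lists, and Actg1, Actg2, Cnn1 and Tagln2 had none. The lists held 970 sites for blebbistatin against DMSO in ATAC (1 at these genes), 207 for Y27632 (2), 1231 for blebbistatin without doxycycline (2), 7613 for doxycycline (2) and 6346 for blebbistatin with doxycycline (4). As shares of the sites that appear to have been tested, the lists hold 1.54%, 0.335%, 1.78%, 9.36% and 8.75%. Nearly every listed site was lower in the 3 blebbistatin lists (98.25%, 99.03% and 99.78%), 85.02% in that of Y27632, and 4.151% in that of doxycycline, so the direction at a site repeats that of its list.

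Acta2 had a site in all 5 lists, the same stretch of intergenic DNA 10497 bases before its start, at chr19:34265634-34266106 in both ATAC lists. In the authors' deposited table of blebbistatin in ATAC, its log2 mean was 6.08 with blebbistatin and 7.70 with DMSO, a log2 fold of -1.63 at an FDR of 0.0164. For Y27632 the authors' deposited values were 6.33 and 7.61, a log2 fold of -1.29 at an FDR of 0.0147. In the other experiment the site was lower with blebbistatin in the absence of doxycycline (authors' deposited log2 fold -1.12, FDR 0.000212) and in its presence (-1.01, FDR 4.87e-11). It was higher with doxycycline alone, where the authors' deposited log2 means were 8.58 and 7.53, a log2 fold of 1.05 at an FDR of 3.7e-06. No other listed site lay within 100000 bases of Acta2 in any of the 5 lists. The RNA of Acta2 was not measured with doxycycline, so the site and the RNA can be set side by side only for the inhibitors, where both were lower.

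The authors' deposited blebbistatin list in ATAC also gives the places of a motif like that of TEAD factors, as HOMER reports it. Its entry at the Acta2 site, shown because it is the only sequence the lists hold for these genes, starts 176 bases from the centre of the site on the minus strand. Capitals mark ATTCC, the reverse complement of the letters GGAAT of the TEAD element. The entry does not hold the full GGAATG, as searched in the promoters, on either strand.
Acta2 site: ccaaATTCCa
Such an entry was present at 603 of 970 listed sites (62.16%), so most sites of the list have one.

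Actb had sites in 3 lists, all in different places. The site in the Y27632 list, chr5:142901854-142902161, lies 954 bases beyond the end of the gene (authors' deposited log2 fold -1.42, FDR 0.0142). That in the doxycycline list, chr5:142906291-142906886, is annotated as an intron (authors' deposited log2 fold 1.01, FDR 3.14e-05). It lies 165 bases from the start that the annotation uses and spans that start. The distance puts this start at 142906753, which is inside the gene span given above and not at its edge. The last, chr5:142928845-142929017, is 22177 bases before the start and was lower with blebbistatin in the presence of doxycycline (authors' deposited log2 fold -1.03, FDR 1.9e-05). None of the 3 was listed for blebbistatin against DMSO in ATAC, where the RNA of Actb fell.

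Cnn2 had 1 site before its start in both blebbistatin lists of the doxycycline experiment. Without doxycycline it was chr10:79987006-79987112, 1541 bases before the start, and the authors' deposited log2 means were 5.59 with blebbistatin and 6.59 with neither drug (log2 fold -1.0, FDR 0.00249). With doxycycline it was chr10:79986891-79987113 and the log2 means were 6.74 and 7.84 (authors' deposited log2 fold -1.10, FDR 9.99e-09), and the 2 intervals share 107 bases. The annotation calls it an intron although it lies 1488 bases outside the Cnn2 gene. No site of either ATAC list was assigned to Cnn2. At Cnn3 a site in an intron, chr3:121449500-121449688, 23053 bases past the start, was lower with blebbistatin in the presence of doxycycline (authors' deposited log2 fold -1.05, FDR 0.000806), where the RNA was not measured.

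**Figure D5:**
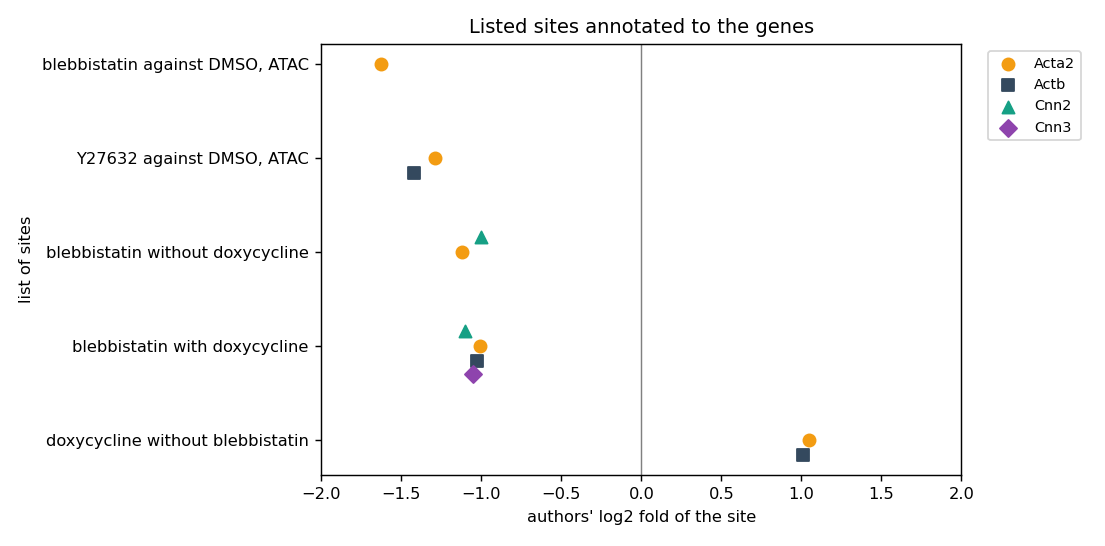
Log2 fold of each of the 11 listed sites assigned to Acta2, Actb, Cnn2 and Cnn3, 1 row per list, as the authors deposited it, with no error because only group means are given. The Acta2 site lies left of 0 in 4 lists and at 1.05 with doxycycline, and no point lies between -1 and 1 in the 3 lower rows because those lists hold only sites past that size.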

How the data were processed

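RNA was measured in 9 libraries and chromatin in 21, in the groups given above. The authors deposited 2 RNA tables with a signal per gene and library. The values show it to be reads over a size factor of each library, set separately for the 2 tables: 100% of values above 0 were within 0.1 of a whole multiple of 1 step, and 0 recovered reads of the DMSO libraries differed between the tables. The submitters' processing notes name build mm10, HISAT2, Picard, featureCounts, DESeq2, Bowtie2, SAMtools, MACS2, DiffBind and HOMER, without versions, roles or order. The log2 folds, log2 group means, p-value and FDR columns and distances to the nearest start (another value) are the authors' own, per the file headers. Of the gene names, 93.09% matched the RefSeq table, and 25 read as dates. The tables held 0 columns of samples that no label names.

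A mean normalised count of at least 10 was required, and genes were tested against DMSO, within each table, by limma 3.58.1 with a trend (R 4.3.3) on log2(normalised count + 1). A fold on this scale understates the change of low genes. The inhibitors were compared with the quasi-likelihood test of edgeR 4.0.16 after TMM scaling, using recovered reads from all 9 libraries. P-values were adjusted over all genes tested by the Benjamini-Hochberg method, and a gene was called under 0.05. The fits were also run on simulated data with 1 spread for all genes, where few genes, all with a mean of at least 100, were changed. That run does not cover low genes such as Cnn1 and Actg2, nor changes in a large part of all genes. Sites were not tested again, and the share of sites listed rests on a number of tested sites worked out from the authors' FDR, rank and p-value. The reference column of the doxycycline list is headed as blebbistatin without doxycycline but was read as the group with neither drug, whose values it follows at 13 sites with the same ends (mean difference -0.128, SD 0.0044). DESeq2 1.42.0, other filters, pseudocounts and scalings, a replicate block and leaving out each library were the alternatives. Named genes are the 8 members, up to 3 called genes of largest change per list and comparison, and the 3 genes most like each member, of which the text gives 1 for the 4 less alike; marker genes named beside the depth fall outside this rule and were chosen after their values were seen. The members and lists were chosen with earlier results of these data known.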

Additional observations from a re-analysis of the deposited data

How the results depend on the processing

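The falls of Actb, Actg1, Acta2 and Cnn2 against DMSO kept their direction and call under all 12 alternatives run for each, with log2 changes of -0.79 to -0.69, -0.73 to -0.62, -1.05 to -0.89 and -1.43 to -1.32 for blebbistatin and -0.49 to -0.43, -0.89 to -0.85, -0.80 to -0.74 and -1.03 to -0.97 for Y27632. The number of the 8 genes called ranged over 4 to 6 for blebbistatin, 5 to 6 for Y27632 and 3 to 5 between the inhibitors. Over the same settings, calls among all genes ranged over 6838 to 8021, 4268 to 5364 and 7066 to 8207. The genes tested numbered 14820 to 14945, or 24384 to 25329 with no filter on low values. A count was taken as moved when it left a band of 1.5 times the reported one, and a share when it shifted by over 1 SD of the replicates. By this rule 2 values moved, namely the site counts of the ATAC lists. Both dropped to 0 sites at the 8 genes when an FDR of at most 0.01 was asked. The authors' FDRs of these sites were 0.0164 for blebbistatin and 0.0142 and 0.0147 for Y27632. With 1 library left out, the difference in share of Actb between blebbistatin and DMSO, 0.0529 percentage points, ran from -0.26 to 0.482 and so has no stable sign, and that of Actg2 ran from 0.0118 to 0.096. Cnn1 with blebbistatin also missed the threshold with no filter on low values (limma adjusted p = 0.0601) and with DESeq2 (adjusted p = 0.0718). The cause was not tested. Values near 0 changed sign. For blebbistatin, Cnn3 was 0.0769 when scaled to total reads and -0.0196 to 0.0196 with 1 library left out, above 0 without DMSO replicate 3 or blebbistatin replicate 1. Tagln2 was 0.0655 when scaled to total reads and -0.0749 to 0.0145 with 1 library left out, above 0 without DMSO replicate 1, DMSO replicate 3 or blebbistatin replicate 2. For Y27632, Actg2 was -0.316 to 0.0795 with 1 library left out, above 0 without Y27632 replicate 2. The cause was not tested.

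Samples were not treated as paired by replicate number. Same-numbered libraries correlated at -0.084 to 0.048 in their deviations from the group means, and not every library was closest to its own number. Such low values cannot show that pairing is absent, and the labels do not give the origin of replicates. With a replicate block, 6 of the 8 genes were called for blebbistatin, Actg2 added at a log2 change of -0.46 (limma adjusted p = 0.0349), 5 for Y27632 and 4 between the inhibitors. Among all genes, 7604 of 14882, 4633 of 14833 and 7699 of 14925 were called. Actin shares per length of transcript were planned and not run, because the reference table gives genomic spans and no transcript lengths. At 29 to 54 reads for Cnn1 and 60 to 160 for Actg2, counting error limits those 2 genes.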
